A study of Mus musculus with 8 samples.

Results

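Genes for matrix metalloproteinases (MMPs), ADAM proteases, ADAMTS proteases and their tissue inhibitors (TIMPs) were examined in MIN6 cells that received a Klf4 plasmid. Members were taken by symbol from the count table: every Mmp, Adam, Adamts and Timp gene with a plain number, with or without 1 letter after it for Mmp and Adam. This gave 79 of 55536 genes, made up of 23 MMPs, 33 ADAMs, 19 ADAMTSs and 4 TIMPs. MIN6 is an insulin-producing β-cell line from a mouse pancreatic tumour, labelled wild type. The control plasmid was the empty vector pcDNA 3, and pGloMyc-Klf4 was used to express Klf4, a zinc-finger transcription factor of epithelia. Both were carried in with Lipofectamine 3000 for 48 h, and the backbones differ by name, so the vector and Klf4 cannot be told apart. Each group had 4 libraries of polyadenylated RNA, described as biological replicates, with replicates 1 and 2 in batch 1 and replicates 3 and 4 in batch 2. The extraction text names isolated islets, whereas every title names the cell line.

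Total counts were 45417853 to 52731176 per library. Klf4 itself had 40.1 ± 3.11 counts per 1e6 (CPM, scaled by TMM factors) in control, against 5040 ± 567.2 CPM after transfection of its plasmid (SD, n = 4), with plasmid and endogenous transcripts counted together. Over all 18266 genes that passed the filter on low counts, 36.6% were called changed, 21.1% higher and 15.5% lower, at an adjusted p under 0.05 in edgeR's quasi-likelihood test with a batch term and Benjamini-Hochberg adjustment. All adjusted p-values below come from that fit, and log2 fold changes are Klf4-transfected over control. The 9 β-cell markers checked were all present, with summed levels of 25300 to 32060 CPM in control and 23630 to 32320 CPM with Klf4. These are bulk libraries, in which more RNA per cell and more expressing cells cannot be told apart.

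MMPs are secreted or membrane-bound zinc proteases that cut collagens, other matrix proteins and cell surface proteins. ADAMs are membrane proteins, many of which release the outer parts of receptors, growth factors and adhesion molecules, a process called shedding. ADAMTSs are secreted and bind the matrix, where different members cut proteoglycans, trim procollagens or process von Willebrand factor. TIMPs bind the active site of these enzymes and block it, with preferences that differ between the 4 inhibitors. In the pancreas such enzymes are best known from stromal and inflammatory cells and from shedding at the β-cell surface.

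Forced Klf4 went with higher levels of ADAMTS genes, of a few MMPs and of 3 of the 4 TIMPs, while most abundant ADAM sheddases moved little. Of the 79 members, 41 passed the filter; 23 were higher, 2 were lower and 16 did not pass the threshold, against a background of 36.6% called. By class, 10 of 13 tested ADAMTSs, 6 of 11 MMPs, 4 of 14 ADAMs and 3 of 3 TIMPs were higher, and the 2 lower genes were ADAMs. An increase of at least 1 on the log2 scale was found for 9 ADAMTSs, 3 MMPs and 2 TIMPs and for no ADAM; over all tested genes 8.5% were called with an increase of that size. The median log2 fold change was 2.67 over tested ADAMTSs, 0.30 over MMPs, 0.09 over ADAMs and 1.09 over TIMPs, beside -0.01 over all tested genes. Adamts3, Adamts9, Adamts14 and Adamts15 passed the filter through their Klf4-transfected libraries alone, with no control library at its cut. Adamts1, Adamts5, Adamts7, Mmp14, Mmp25, Mmp28 and Adam12 reached the cut in only some control libraries. They too needed Klf4-transfected libraries to pass. The filter thus favoured members that were high with Klf4, so these counts and medians describe the tested members only and are not a test of the classes. The 25 called members had the same sign in both batches when each batch was fitted alone. They were called from both batches together, so this agreement is not a separate test. Groups did not overlap for 20 of them, which is no separate support because the calls used the same values. The share of such genes over all tested genes was not computed.

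**Figure D1:**
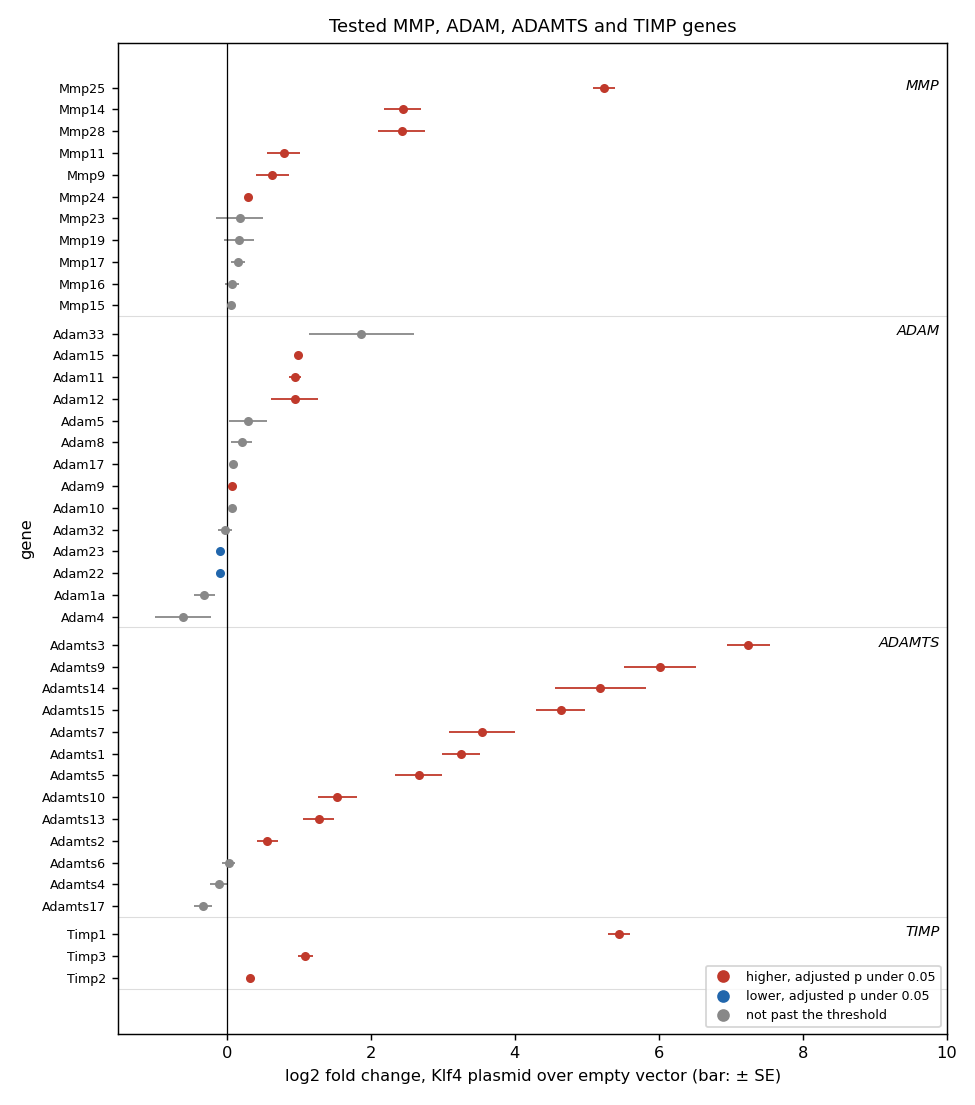
Log2 fold change (x axis, Klf4 plasmid over empty vector) of the 41 tested members (y axis), by class, with bars for ± SE and colours for the call at an adjusted p under 0.05. ADAMTS genes spread from -0.33 for Adamts17 to 7.24 for Adamts3, and ADAM genes from -0.60 for Adam4 to 1.87 for Adam33. Adam4 and Adam33 were not called, and the called ADAM genes lie between -0.09 and 0.99.

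Within the control cells the classes differed in level, compared here as CPM per kilobase of annotated exon, which adjusts for gene length. Timp2 (43.2 ± 2.21) and Adam9 (41.5 ± 3.75) headed the order and did not differ beyond their spread (SD, n = 4). Adam10 followed at 19.4 ± 0.533, Mmp15 at 10.1 ± 0.39, Adam15 at 9.19 ± 0.279 and Mmp24 at 6.24 ± 0.657. Next came Adam23 (5.25 ± 0.644) and Adam22 (5.19 ± 0.217), a pair within each other's spread, and Adam17 at 3.79 ± 0.0918. The highest ADAMTSs were Adamts4 at 1.05 ± 0.134 and Adamts6 at 0.661 ± 0.0371. Thus the control profile was one of membrane-bound proteases and Timp2, with every ADAMTS near or under 1 CPM per kilobase. In the Klf4-transfected cells this order was much the same at its top, except that Timp1 went from rank 19 to rank 5, at 16.5 ± 4.77 CPM per kilobase, and Adam15 (18.3 ± 1.72) lay close below Adam10 (20.4 ± 0.637).

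**Figure D2:**
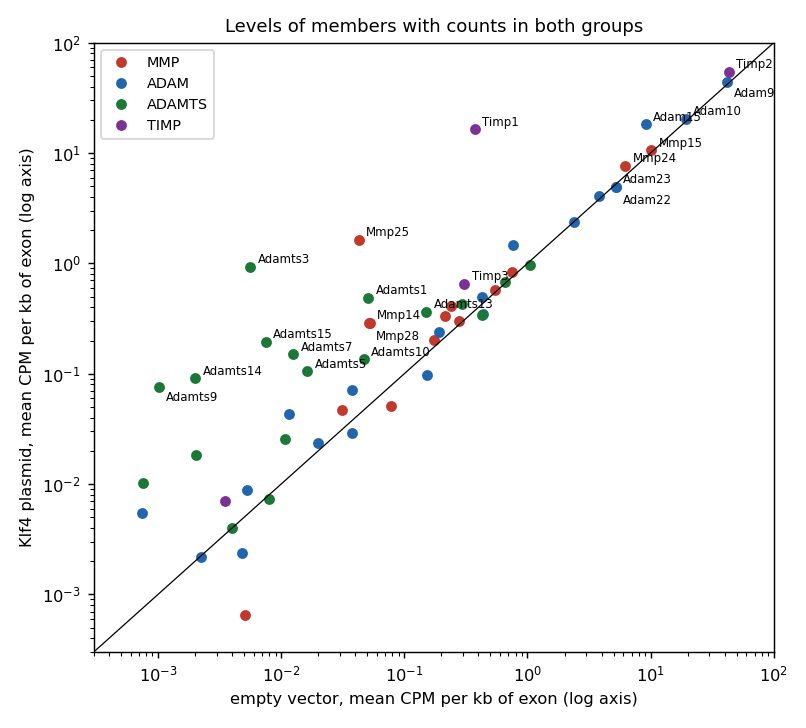
Mean level of the 56 members with counts in both groups, as CPM per kilobase of exon on log axes, empty vector (x) against Klf4 plasmid (y), with the line of equality. Most abundant ADAMs lie on or near the line and Adam15 lies above it, while Timp1, Mmp25 and Adamts3 lie far above it.

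Upstream sequences are given for 6 of the members that rose by more than 2 on the log2 scale, to let the promoters of different classes be compared: 3 ADAMTSs, 2 MMPs and Timp1. They were picked with their values known, and Adamts1 was included as the higher member with a TATA box. Capitals mark motif matches, searched on both strands, and neighbouring matches may overlap. The motif GGGCGG is the GC box bound by Sp and many KLF proteins. The motif TATAAA is the TATA box of the core promoter. For AP-1, the letters TGANTCA were searched. For a KLF-type site, the letters were GGGNGTGG. Each line gives the 250 bases before the RefSeq start of the gene in GRCm38.p6, read 5′ to 3′ along the strand of the gene.
Adamts3, chr5:89883335-89883584, minus strand: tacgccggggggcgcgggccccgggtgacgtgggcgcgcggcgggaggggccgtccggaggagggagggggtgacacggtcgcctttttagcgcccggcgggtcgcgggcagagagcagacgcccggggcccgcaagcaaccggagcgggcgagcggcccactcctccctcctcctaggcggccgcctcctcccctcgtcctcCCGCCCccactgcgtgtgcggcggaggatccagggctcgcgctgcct
Adamts9, chr6:92943535-92943784, minus strand: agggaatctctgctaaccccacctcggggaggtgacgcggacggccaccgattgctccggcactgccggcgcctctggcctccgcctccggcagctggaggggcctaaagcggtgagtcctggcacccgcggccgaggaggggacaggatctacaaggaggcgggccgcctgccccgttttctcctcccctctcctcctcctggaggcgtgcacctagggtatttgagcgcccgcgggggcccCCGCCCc
Adamts1, chr16:85803114-85803363, minus strand: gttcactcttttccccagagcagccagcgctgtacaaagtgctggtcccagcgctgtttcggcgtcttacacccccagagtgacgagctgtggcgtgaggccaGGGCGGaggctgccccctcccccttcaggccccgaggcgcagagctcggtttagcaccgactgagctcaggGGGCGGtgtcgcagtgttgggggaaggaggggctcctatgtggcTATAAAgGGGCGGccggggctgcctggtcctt
Mmp25, chr17:23645270-23645519, minus strand: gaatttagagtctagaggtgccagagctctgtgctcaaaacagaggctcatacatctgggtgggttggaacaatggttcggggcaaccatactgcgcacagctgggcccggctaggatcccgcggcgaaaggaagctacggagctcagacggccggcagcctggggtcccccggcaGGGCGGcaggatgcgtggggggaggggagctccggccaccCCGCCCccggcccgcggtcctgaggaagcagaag
Mmp14, chr14:54431348-54431597, plus strand: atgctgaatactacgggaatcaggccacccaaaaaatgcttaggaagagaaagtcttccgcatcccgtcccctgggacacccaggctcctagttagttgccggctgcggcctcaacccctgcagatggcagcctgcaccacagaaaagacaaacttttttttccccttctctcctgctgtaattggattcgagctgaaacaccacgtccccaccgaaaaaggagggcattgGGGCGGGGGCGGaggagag
Timp1, chrX:20869916-20870165, plus strand: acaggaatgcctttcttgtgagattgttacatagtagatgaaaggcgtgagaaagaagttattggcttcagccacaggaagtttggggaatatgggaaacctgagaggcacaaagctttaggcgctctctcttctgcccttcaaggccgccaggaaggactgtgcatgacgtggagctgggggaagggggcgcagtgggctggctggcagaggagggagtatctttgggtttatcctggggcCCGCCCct

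All 6 windows held a GC box on at least 1 strand, and Adamts1 alone of them held a TATA box. Mmp14 carried a pair of GC boxes side by side just before its start, and Adamts1 carried 3. Neither an AP-1 nor a KLF-type match as spelled here lay in any of the 6. RefSeq windows were matched for 49 members. Among the 15 higher members with a window, 14 held a GC box and 1, Adamts13, held a KLF-type match; Adamts13 was also the one without a GC box. A GC box lay in 4 of 7 tested members that were not called, in 0 of 2 lower members and in 2 of 25 members that were not tested. Over all 32851 windows of this length the share was 32.7% for the GC box, 15.9% for the KLF-type site, 6.75% for AP-1 and 12.4% for TATA. Members were counted once over all their windows, whereas these shares are per window and take in genes below the filter. They are thus no baseline for tested genes. Matches are letters in a window and do not show binding.

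The ADAMTS proteoglycanases, which cut aggrecan and versican, gave some of the clearest differences. Adamts1 (chromosome 16, 85793827 to 85803113, minus strand) had 0.510, 0.144, 0.162 and 0.269 CPM in control replicates 1 to 4 and 2.34, 2.25, 2.93 and 2.86 CPM in Klf4-transfected replicates 1 to 4. No control library came near the lowest Klf4-transfected one, and the log2 fold change was 3.25 (SE 0.26, adjusted p 8.65e-10). Its neighbour Adamts5 (chromosome 16, 85856173 to 85901828, minus strand), the main aggrecanase of mouse cartilage, had 0.149, 0.144, 0.101 and 0.311 CPM in control and 0.774, 1.17, 1.08 and 1.498 CPM with Klf4. It rose by 2.67 (SE 0.32, adjusted p 5.76e-07) with groups that did not overlap. Both genes of this chromosome 16 pair therefore were higher in every Klf4-transfected library.

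Adamts15 (chromosome 9, 30899155 to 30922452, minus strand), a versican-cutting protease, had 6, 6, 2 and 1 control counts and 81, 71, 121 and 139 with Klf4. On summed counts this is a ratio of 26.3 with a 95% counting interval of 15.7 to 47.3, and the fitted log2 fold change was 4.64 (SE 0.34, adjusted p 1.43e-10). Adamts8, which lies beside it on chromosome 9, had no counts in any control library and 16, 19, 10 and 2 counts with Klf4. It fell below the filter; against a floor of 3 counts over the control group its level was at least 14.97-fold higher, and in the fit without a filter its adjusted p was 3.34e-07. Adamts9 (chromosome 6, 92772699 to 92943492, minus strand), a conserved secreted protease needed for vascular and ciliary development, had 0, 0, 3 and 0 counts in control and 50, 38, 75 and 72 with Klf4. The ratio of summed counts was 74.9 (95% counting interval 25.3 to 365.6) and the log2 fold change 6.01 (SE 0.50, adjusted p 1.49e-09). All control counts of Adamts9 came from replicate 3, without which the log2 fold change was 8.72. No control count remained there, so the size of 8.72 rests on the small prior count added in the fit. Adamts4, the highest ADAMTS of the control cells per kilobase of exon, did not pass the threshold: its values were 5.35, 5.32, 5.42 and 4.08 CPM in control and 4.61, 3.84, 4.81 and 5.39 CPM with Klf4 (log2 fold change -0.11, SE 0.11, adjusted p 0.494). Adamts20 had 7 counts in each group and was not tested.

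All 3 procollagen N-propeptidases, which remove the amino-terminal propeptide of fibrillar collagens, were higher. Adamts3 (chromosome 5, 89677087 to 89883334, minus strand), which also activates the lymphatic growth factor VEGF-C, showed the largest change of any member. Its counts were 0, 0, 5 and 1 in control and 224, 166, 306 and 332 with Klf4, or 4.34, 3.67, 5.82 and 6.30 CPM. The ratio of summed counts was 163.7 (95% counting interval 75 to 447.2), with a log2 fold change of 7.24 (SE 0.30, adjusted p 5.65e-15) that became 8.94 without control replicate 3. Adamts14 (chromosome 10, 61197112 to 61273438, minus strand) went from 1, 1, 0 and 0 counts to 21, 12, 32 and 32, a ratio of 46.4 with a counting interval of 12.5 to 388.1 (log2 fold change 5.19, SE 0.64, adjusted p 6.57e-07). Adamts2, the most abundant of the 3 in control cells, changed least: 3.27, 3.76, 1.62 and 2.42 CPM in control against 3.70, 5.48, 3.44 and 3.51 CPM with Klf4. The Adamts2 groups overlapped, batch 1 controls lay above batch 2 controls, and the log2 fold change was 0.56 (SE 0.15, adjusted p 0.00399).

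Of the ADAMTSs that cut cartilage oligomeric matrix protein (COMP), Adamts7 (chromosome 9, 90163069 to 90208071, plus strand) rose. Its counts were 10, 2, 2 and 1 in control and 48, 26, 51 and 68 with Klf4, a ratio of 12.3 (95% counting interval 7.27 to 22.4) and a log2 fold change of 3.55 (SE 0.46, adjusted p 1.39e-06). Control replicate 1 gave most of the control counts, and without it the value was 4.74. The other COMP-cutting member, Adamts12, had 17 counts over the control and 16 over the Klf4-transfected libraries and was not tested. Adamts13, which cuts von Willebrand factor, had 0.8285, 0.966, 0.710 and 0.477 CPM in control and 2.21, 1.35, 1.85 and 1.76 CPM with Klf4 (log2 fold change 1.28, SE 0.22, adjusted p 5.02e-05). Adamts10, a fibrillin-associated member, had 0.446, 0.555, 0.325 and 0.228 CPM in control and 1.01, 1.39, 0.875 and 1.20 CPM with Klf4, and its groups did not overlap (log2 fold change 1.54, SE 0.26, adjusted p 6.54e-05). The remaining tested members did not pass the threshold. Adamts6 stayed between 4.87 and 5.46 CPM in control and between 5.01 and 5.52 CPM with Klf4 (log2 fold change 0.03, SE 0.09, adjusted p 0.827), and Adamts17 had a log2 fold change of -0.33 (SE 0.13, adjusted p 0.0506). Below the filter, Adamts18 went from 4 to 38 and Adamts19 from 2 to 29 summed counts, ratios of 9.08 (95% counting interval 3.27 to 35) and 13.9 (3.51 to 119.8); without a filter their adjusted p-values were 0.00178 and 0.00537. Adamts16 had 14 and 36 summed counts, and its adjusted p without a filter was 0.163.

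**Figure D3:**
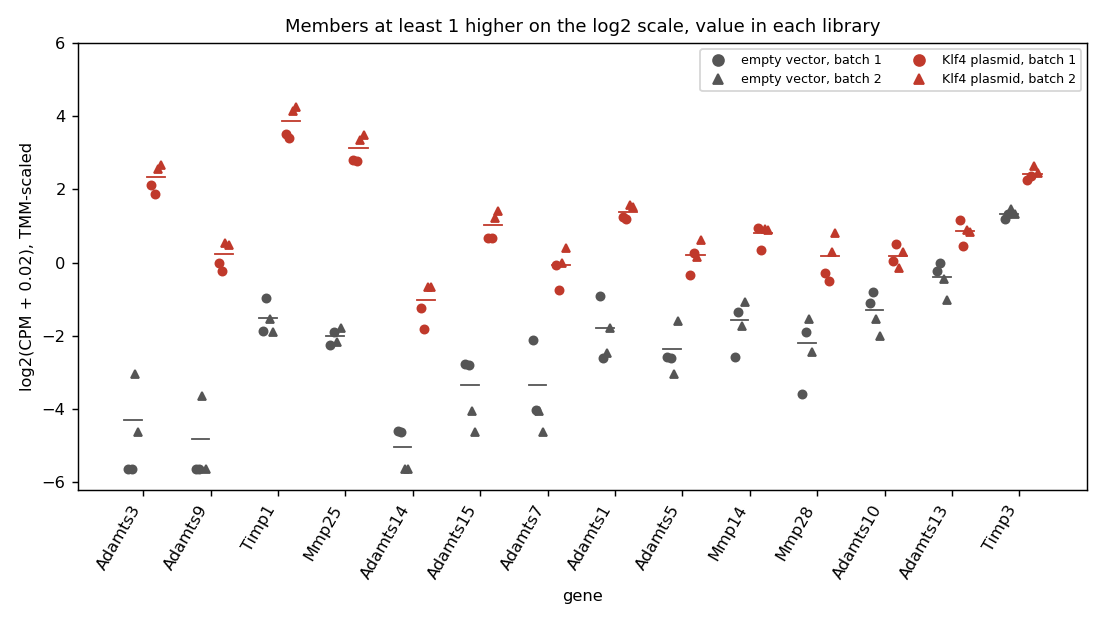
Value in each of the 8 libraries for the 14 members called higher with a log2 fold change of at least 1 (x axis), as log2(CPM + 0.02) on the y axis; circles are batch 1, triangles batch 2, and short lines group means. No Klf4-transfected library falls to the level of a control library of the same gene.

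Among the MMPs, the largest change was in Mmp25 (chromosome 17, 23628311 to 23645277, minus strand), a membrane-type protease held by a lipid anchor and best known from neutrophils. It had 9, 12, 10 and 13 counts in control and 360, 306, 529 and 582 with Klf4. Its level went from 0.228 ± 0.0367 to 8.71 ± 2.17 CPM (SD, n = 4), a 38.3-fold difference (log2 fold change 5.24, SE 0.15, adjusted p 9.16e-18). Mmp14 (chromosome 14, 54431612 to 54445364, plus strand), the transmembrane protease that activates pro-MMP2, had 0.149, 0.370, 0.284 and 0.456 CPM in control and 1.90, 1.26, 1.86 and 1.84 CPM with Klf4. It was higher in every Klf4-transfected library (log2 fold change 2.44, SE 0.26, adjusted p 6.95e-08). Its substrate gene Mmp2 had no counts in control and 1, 2, 1 and 2 with Klf4, too few to test. The other membrane-type members were already abundant and moved less. Mmp24 went from 26.7, 26.4, 31.9 and 31.9 to 33.9, 32.5, 37.6 and 39.1 CPM, with a log2 fold change of 0.30 (SE 0.04, adjusted p 4.25e-06). Mmp15, the most abundant MMP, had 54.4, 51.7, 56.6 and 55.5 CPM in control and 54.0, 56.8, 57.0 and 60.6 CPM with Klf4, groups that overlapped (log2 fold change 0.07, SE 0.04, adjusted p 0.175, or 0.10 and adjusted p 0.0399 with factors from abundant genes). Mmp16 and Mmp17 did not pass the threshold either (log2 fold changes 0.08 and 0.16, adjusted p 0.571 and 0.243).

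Mmp28 (chromosome 11, 83440768 to 83463071, minus strand), or epilysin, a secreted protease of epidermis and other epithelia, had 3, 12, 16 and 8 counts in control and 41, 31, 63 and 92 with Klf4. The groups did not overlap and the log2 fold change was 2.43 (SE 0.33, adjusted p 2.78e-06). Mmp11, a stromelysin that is activated inside the cell, went from 0.744, 0.760, 0.568 and 0.580 CPM to 0.929, 1.13, 1.46 and 1.08 CPM (log2 fold change 0.79, SE 0.23, adjusted p 0.00836). Without Klf4-transfected replicate 3 the Mmp11 value was 0.62 and its adjusted p 0.0545. Mmp9, the gelatinase of inflammation and wound edges, had 0.892, 0.493, 0.669 and 0.994 CPM in control and 0.890, 1.13, 1.37 and 1.37 CPM with Klf4, and its groups overlapped (log2 fold change 0.63, SE 0.23, adjusted p 0.0321). The Mmp9 call was lost when control replicate 2 or 3 or Klf4-transfected replicate 2, 3 or 4 was left out (log2 fold changes 0.49, 0.49, 0.58, 0.60 and 0.61). Mmp19 and Mmp23 did not pass the threshold, with log2 fold changes of 0.18 each (adjusted p 0.558 and 0.727).

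The MMPs of inflammation and tissue breakdown that sit together on chromosome 9 (7272514 to 7699585) were silent or nearly so. This run of 10 neighbours, Mmp13, Mmp12, Mmp1b, Mmp3, Mmp1a, Mmp10, Mmp8, Mmp27, Mmp20 and Mmp7, holds the collagenases, 2 stromelysins and matrilysin. Together they had 48 counts over the 4 control and 32 over the 4 Klf4-transfected libraries, and none passed the filter. Mmp13 supplied most of these, with 13, 13, 4 and 10 counts in control and 5, 9, 6 and 7 with Klf4, and Mmp12 had 7 and 1 summed counts. Mmp1a, Mmp1b, Mmp3, Mmp7 and Mmp27 had no count in any library. A count of 0 over a group allows up to 3 counts, for counting error only. AP-1 matches lay in the upstream windows of 8 of these 10 genes, beside 6.75% of all windows. None of the 15 higher members with a window held one, and neither did the 7 tested members that were not called or the 2 lower ones. With so low a share over all windows, this absence is not a trait of the higher members.

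The somatic ADAM proteases include the main sheddases of Notch, cadherins, growth factors and cytokine receptors. Adam15 (chromosome 3, 89338542 to 89349996, minus strand), which carries an integrin-binding disintegrin domain, was the exception among abundant ADAMs. Its level was 56.0, 54.6, 58.8 and 56.5 CPM in control and 104.2, 104, 114.8 and 126.2 CPM with Klf4, a clean separation with a log2 fold change of 0.99 (SE 0.04, adjusted p 1.61e-15). Adam10, the sheddase of Notch and E-cadherin, had 95.4, 97.2, 96.8 and 91.5 CPM in control and 96.4, 103.1, 102.6 and 99.4 CPM with Klf4. The Adam10 groups overlapped and the difference did not pass the threshold (log2 fold change 0.08, SE 0.03, adjusted p 0.0751); it was called with scaling factors from abundant genes (0.11, adjusted p 0.0116), with a filter at 1 CPM (0.09, adjusted p 0.0429) and without Klf4-transfected replicate 1 (0.09, adjusted p 0.0475). For Adam17, the sheddase of tumour necrosis factor, control libraries had 26.5 to 28.04 CPM and Klf4-transfected libraries 28.4 to 29.8 CPM, groups that did not overlap although the log2 fold change of 0.09 (SE 0.04) missed the threshold (adjusted p 0.1). Adam9 had 180.6, 187.4, 158 and 157.5 CPM in control and 193.2, 193.3, 170.1 and 166.4 CPM with Klf4. Both groups lay lower in batch 2 than in batch 1, and with the batch term Adam9 was called higher by 0.08 (SE 0.03, adjusted p 0.0194). That call was lost without control replicate 1, 3 or 4 or Klf4-transfected replicate 1, 2 or 3 (log2 fold changes 0.06, 0.07, 0.07, 0.08, 0.08 and 0.06).

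Adam12, a sheddase of heparin-binding EGF-like growth factor, had 24, 23, 8 and 21 counts in control and 27, 45, 49 and 30 with Klf4. It was called higher by 0.95 (SE 0.33, adjusted p 0.0265), and the call was lost without control replicate 3 (0.67) or Klf4-transfected replicate 2 (0.81) or 3 (0.72) and with the replicate number as a block (0.93, adjusted p 0.0514). Adam8, a myeloid member, did not pass the threshold (log2 fold change 0.21, adjusted p 0.284). Adam33 had 0, 0, 1 and 11 counts in control and 11, 17, 5 and 13 with Klf4, so that its control level came almost wholly from replicate 4. Its log2 fold change of 1.87 (SE 0.73) missed the threshold (adjusted p 0.0502) and passed it with the replicate number as a block (adjusted p 0.0419) and in the fit without a filter (adjusted p 0.0118). Without control replicate 4 the Adam33 value was 4.70 (adjusted p 0.000265), and 2 of the 8 fits that left out a library called it. Batch 1 alone gave 6.82 (adjusted p 0.000462) and batch 2 alone 0.47 (adjusted p 0.718). Adam33 had no control count in batch 1, so the size of 6.82 rests on the prior count. Adam19 and Adam28 had no more than 5 counts in any library and were not tested.

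The following ADAMs lack the zinc-binding protease site and act as adhesion or receptor proteins of neurons and endocrine cells. Adam11 was higher, with 3.89, 4.31, 4.67 and 4.41 CPM in control and 7.51, 7.64, 8.80 and 9.56 CPM with Klf4 (log2 fold change 0.95, SE 0.08, adjusted p 4.13e-09). Adam22, a receptor for the LGI proteins of synapses, was called lower by a small margin: 73.5, 76.5, 77.3 and 70.5 CPM against 69.7, 69.1, 69.8 and 71.1 CPM (log2 fold change -0.09, SE 0.03, adjusted p 0.0464). Adam23 had 83.5, 84.6, 105.5 and 102.2 CPM in control and 80.7, 80.7, 98.5 and 93.3 CPM with Klf4 (log2 fold change -0.09, SE 0.03, adjusted p 0.0324). Both sets of groups overlapped, and neither call held when scaling factors came from abundant genes alone (-0.05 each, adjusted p 0.258 and 0.213). The Adam22 call was lost without control replicate 2 (-0.09) or 3 (-0.08) or Klf4-transfected replicate 1 (-0.10) or 2 (-0.09) and with the replicate number as a block (adjusted p 0.0682). Leaving out control replicate 3 (-0.08) or Klf4-transfected replicate 4 (-0.07) ended the call for Adam23.

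Of the 21 ADAMs known mainly from testis and sperm, 4 were tested and none was called. Adam32 was the most abundant, with 5.19 to 9.37 CPM in control and 4.72 to 10.02 CPM with Klf4 (log2 fold change -0.02, SE 0.09, adjusted p 0.89). Adam1a, Adam4 and Adam5 had log2 fold changes of -0.31, -0.60 and 0.30 (adjusted p 0.0968, 0.245 and 0.407). Adam1a shares exons with other annotated genes, Mapkapk5 among them, so its counts are uncertain. A pair of neighbour groups on chromosome 8 was silent or nearly so: Adam24, Adam25, Adam20 and Adam39 had 3 counts in all, and Adam26b, Adam26a and Adam34 had 1. Another group on chromosome 8 (24602246 to 25016927) holds Adam18, Adam3, Adam5, Adam32 and Adam9 and was active through Adam32 and Adam9. Adam6a, Adam20, Adam25, Adam26b, Adam29, Adam34 and Adam39 had no count in any library.

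Inhibitor genes rose alongside the proteases. Timp1 (chromosome X, 20870166 to 20874735, plus strand), a secreted inhibitor induced by growth factors and cytokines, had 12, 24, 16 and 12 counts in control and 586, 480, 931 and 991 with Klf4. Its level went from 0.33 ± 0.114 to 14.6 ± 4.24 CPM (SD, n = 4), a 44.2-fold difference (log2 fold change 5.44, SE 0.15, adjusted p 6.02e-18). Timp2, which also takes part in the activation of pro-MMP2 by MMP14, had 159.9, 162.7, 173.2 and 178.2 CPM in control and 207, 197.3, 217.7 and 222.1 CPM with Klf4. Control and Klf4-transfected libraries did not overlap, though the change was small (log2 fold change 0.32, SE 0.03, adjusted p 1.59e-09). Timp3, the inhibitor bound to the matrix that also acts on ADAM17 and ADAMTS4 and ADAMTS5, had 2.25, 2.51, 2.74 and 2.51 CPM in control and 4.70, 5.10, 6.18 and 5.39 CPM with Klf4 (log2 fold change 1.09, SE 0.11, adjusted p 1.98e-08). It lies in an intron of Syn3 on the other strand and shares 1733 exonic bases with it; Syn3 had 1.84 and 1.65 CPM in the respective groups and was not called (adjusted p 0.545). Timp4 had 1, 2, 1 and 0 counts in control and 2, 4, 0 and 2 with Klf4 and was not tested. The summed level of the 4 TIMPs was 162.4 to 181 CPM in control and 213.1 to 246.3 CPM with Klf4, of which Timp2 was the larger part in all libraries.

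Other members share exonic bases with a gene on the opposite strand, and whether counting used strand is not given in the sources used here. For Mmp24 this is BC029722, at 59.2 CPM in control and 53 CPM with Klf4, which was called in the other direction (log2 fold change -0.16, adjusted p 0.00197). For Mmp11 it is Chchd10, at 62.7 and 73.5 CPM, called higher by 0.22 (adjusted p 0.000175), and its part in the Mmp11 result was not tested. For Adamts7 it is Tbc1d2b, at 9.05 and 10.1 CPM, not called (adjusted p 0.0718). The genes overlapping Adamts9 had no counts, and those overlapping Mmp28 and Adam15 stayed under 0.3 CPM in both groups.

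Within batches the 25 called members kept their sign, and the sizes were closer for some members than for others. Batch 1 and batch 2 gave log2 fold changes of 4.85 and 5.99 for Timp1, 4.95 and 5.48 for Mmp25, 2.59 and 2.33 for Mmp14, 2.81 and 3.75 for Adamts1, 2.70 and 2.65 for Adamts5, and 0.91 and 1.08 for Adam15. Larger gaps were found for Adamts7 (2.56 and 5.10), Adamts15 (3.61 and 6.23) and Adamts14 (3.85 and 7.96), whose control libraries held few counts, with none for Adamts14 in batch 2. For Adamts3 the values were 10.6 and 6.58 and for Adamts9 8.45 and 5.41; neither gene had a control count in batch 1, where the fitted value rests on the prior count. Klf4 itself gave 6.78 and 7.17, a difference that passed the threshold (adjusted p 0.0057). The difference in effect between batches passed the adjusted threshold for none of the 41 tested members (edgeR interaction test). Of all tested genes 0.766% passed it, so none among 41 does not show equal effects. At an unadjusted p under 0.05 there were 7 members, and the share of all tested genes at that level was not computed.

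Genes that work with these proteases were taken from lists of 70 partners, chosen with earlier results of these data known. The counts below therefore describe these lists and are not a test against all genes. Of the 52 that passed the filter, 36 were higher and 4 lower, beside 21.1% and 15.5% of all tested genes, and 6 of the 52 passed through their Klf4-transfected libraries alone. Among the matrix substrates, 8 of 9 tested genes were higher and 1, Ncan, was lower; Dcn, Comp, Acan and Nid1 passed the filter through their Klf4-transfected libraries alone. Elastin (Eln) counts among the 8, but it was higher in batch 1 (0.90) and not called in batch 2 (0.07, adjusted p 0.512). Decorin (Dcn), a small proteoglycan that binds collagen, had 1, 3, 5 and 0 counts in control and 735, 655, 1081 and 1124 with Klf4, the largest change of the lists (log2 fold change 8.49, SE 0.18, adjusted p 4.45e-20, or 9.08 without control replicate 3). Comp, the cartilage protein cut by ADAMTS7, had 2, 8, 7 and 3 counts in control and 412, 336, 573 and 663 with Klf4 (log2 fold change 6.52, SE 0.19, adjusted p 1.14e-17). The proteoglycanase substrates aggrecan (Acan) and versican (Vcan) rose by 4.86 (SE 0.56, adjusted p 2.45e-07) and 3.64 (SE 0.12, adjusted p 1.41e-16). Without control replicate 3 the value for Acan was 6.11, and batch 1 and batch 2 gave 7.96 and 4.01. Acan had no control count in batch 1, so the 7.96 rests on the prior count. Vcan was the more abundant, at 1.97 ± 0.574 CPM in control and 24.9 ± 5.82 CPM with Klf4 (SD, n = 4). The basement membrane genes perlecan (Hspg2) and nidogen (Nid1) rose by 4.54 (SE 0.13, adjusted p 1.28e-17) and 5.27 (SE 0.43, adjusted p 9.98e-10). Without control replicate 1 the value for Nid1 was 6.13, and batch 1 and batch 2 gave 4.34 and 6.38. The neural lectican Ncan fell by 0.11 on the log2 scale (adjusted p 0.0118). Fn1, Tnc and Vwf stayed below the filter.

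Cofactors and targets of the sheddases were also mostly higher. Of 8 tested cofactors 6 were higher and none lower. For this and each list below, the share over all tested genes was 21.1% higher and 15.5% lower. Rhbdf1, an inactive rhomboid that carries ADAM17 to the surface, had 40, 29, 18 and 35 counts in control and 210, 145, 196 and 197 with Klf4 (log2 fold change 2.54, SE 0.19, adjusted p 1.44e-10). Its paralogue Rhbdf2 and their binding partner Frmd8 rose by 0.28 and 0.27 (adjusted p 0.000174 and 0.000696). The tetraspanins that escort ADAM10, picked out here after their values were seen, went in different ways: Tspan14, Tspan15 and Tspan17 rose by 1.09, 0.59 and 0.48 (adjusted p 6.9e-11, 1.54e-11 and 1.41e-08), while Tspan5 and Tspan33 had log2 fold changes of -0.06 and -0.07 (adjusted p 0.0703 and 0.417). Among proteins shed by ADAMs, 14 of 17 tested genes were higher and none lower. The median log2 fold change of the 17 was 0.65, and 4 were called with an increase of at least 1. Cdh2 and App were called higher by only 0.09 and 0.10. Amphiregulin (Areg), an EGF receptor ligand, went from 0, 4, 0 and 0 to 21, 10, 16 and 17 counts (log2 fold change 3.79, SE 0.69, adjusted p 0.000125). All control counts of Areg came from replicate 2, without which the value was 6.96, and batch 1 and batch 2 gave 2.85 and 7.01. With no control count left, the 6.96 and 7.01 rest on the prior count. In the list of activating proteases and their receptor, 4 of 6 were higher; the urokinase receptor Plaur rose by 2.47 (SE 0.20, adjusted p 6.17e-10), whereas Furin, which removes the prodomain of many ADAMs and membrane-type MMPs, had a log2 fold change of -0.05 (adjusted p 0.227). Of 4 tested ADAMTS-like genes, which lack the protease domain, 3 were higher, among them Papln (2.73, SE 0.38, adjusted p 4.35e-06). In the list of other inhibitors and inducers 1 of 5 was higher and 1 lower, and among other metzincin proteases 2 of 3 were lower and none higher; the 2 lower genes, Bmp1 and Pappa2, fell by 0.11 and 0.08 on the log2 scale (adjusted p 0.0239 and 0.0358). Ncan, Bmp1, Pappa2 and the inhibitor-list gene Spock2 were the 4 lower partners, and none was called with scaling factors from abundant genes.

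**Figure D4:**
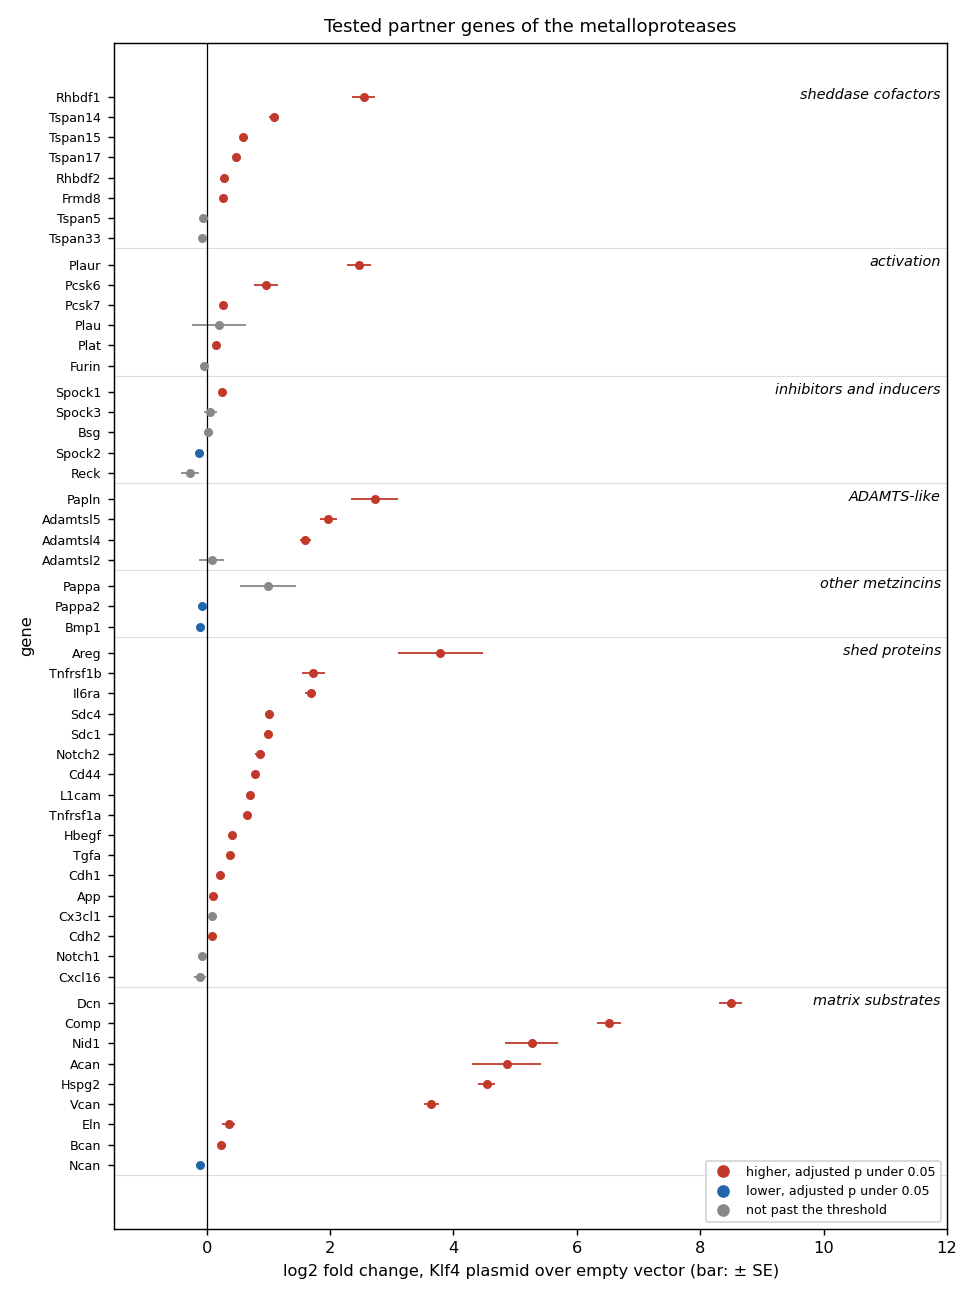
Log2 fold change (x axis, Klf4 plasmid over empty vector) with ± SE for the 52 tested partner genes (y axis), by list and coloured by call. Matrix substrates reach 8.49 for Dcn, while most sheddase cofactors and shed proteins lie between 0 and 2.

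Since many of these proteases are typical of stroma, markers of other cells were read in the same libraries. Of 8 fibroblast markers, 5 were tested, of which Dcn and Pdgfra passed the filter through their Klf4-transfected libraries alone, and 4 were higher (Col1a1, Dcn, Pdgfra and Thy1), with a summed level of 4.41 to 5.65 CPM in control and 24.1 to 30.8 CPM with Klf4, most of it Dcn, which is also in the matrix list. The fibroblast markers Lum (0 counts in all 8 libraries) and Col3a1 (2 counts in 1 control and 3 in 1 Klf4-transfected library) were at or near 0, and Col1a2 was not called (log2 fold change 0.09, adjusted p 0.734). Macrophage markers summed to 6.2 to 6.78 CPM in control and 6.05 to 7.69 CPM with Klf4, with none of the 2 tested called and Adgre1 at 0 counts in every control library. Endothelial markers summed to 4.1 to 4.48 and 5.01 to 5.28 CPM, with Cdh5, which passed the filter through its Klf4-transfected libraries alone, higher of 3 tested and Kdr at 0 counts in every control library. Of the 9 β-cell markers, 5 were called lower (Iapp, Pdx1, Mafa, G6pc2 and Slc30a8) and none higher. Their log2 fold changes were small, from -0.07 for Iapp to -0.22 for Slc30a8. Over all tested genes 21.1% were called higher and 15.5% lower. The part of these shifts in the protease results was not tested.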

How the data were processed

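Polyadenylated RNA of 8 MIN6 libraries was counted per gene, and the whole-number counts that the authors deposited were used without change. The submitters' processing notes name FastQC, STAR, featureCounts, edgeR and the build mm10, and the name of the deposited table speaks of cutadapt trimming; annotation, strand setting and tool settings are not given in the sources used here. All 55536 pairs of identifier and symbol matched GENCODE M21 (GRCm38), which gave positions, exonic lengths and overlaps.

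Genes were kept with filterByExpr (minimum count 10, here 0.204 CPM in at least 4 libraries), leaving 18266. Counts were fitted in edgeR 4.0.16 (limma 3.58.1, R 4.3.3) with TMM factors of 0.996 to 1.01 and terms for batch and plasmid, as the series' design text states. The quasi-likelihood test was adjusted over all tested genes, and an adjusted p under 0.05 was called. The procedure was tested on simulated data, with changes smaller than the largest found here and put only into genes of higher control level. That simulation therefore does not cover members with few control counts. Standard errors are the log2 fold change over the square root of the F statistic. Ratios of summed counts with at most 20 control counts have exact conditional 95% intervals, which cover counting error only. Libraries of a group differed beyond sampling noise (chi-square per degree of freedom 3.96 to 21.1), so all were kept.

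Replicate numbers come from the titles. Deviations of same-numbered libraries correlated at 0.614, 0.459, 0.57 and 0.516 over 10485 genes, and at -0.0463 and 0.0783 once batch means were removed.

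The members, role lists and partner lists were chosen with earlier results of these data known. Members given in every library were up to 8 called genes of largest change in each protease class, the 2 highest per kilobase in each, and all TIMPs; up to 10 partner genes with a change of at least 1 were named. Alternatives were other scalings, filters, thresholds and designs, DESeq2 1.42.0, limma-voom, each batch alone and the omission of each library. Promoter sequences are RefSeq's. Python 3.11.15 was used for tables and figures.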

Additional observations from a re-analysis of the deposited data

Results flagged for a closer look

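In 78 sets of 4 values, 6 held 1 value separated from the other 3 by most of the range, where chance gives about 3.9. The total of Klf4-transfected replicate 2 was 45417853 counts, under the 51890000 to 52730000 of the rest of its group. The same library had 1.26 CPM of Mmp14 (57 counts) against 1.84 to 1.90 CPM in the others. Control replicate 3 had 0.0609 CPM of Adamts9, which is 3 counts, while the others had 0. Control replicate 1 had 0.212 CPM of Adamts7 (10 counts) against 0.0207 to 0.0411 CPM, and control replicate 4 had 4.08 CPM of Adamts4 against 5.32 to 5.42 CPM. Control replicate 2 had 0.0822 CPM of Areg (4 counts), with 0 in the other controls.

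By edgeR's interaction test, effects were unequal in the batches for Klf4 itself and 6 partner genes. The effect in batch 2 minus that in batch 1 was 0.37 on the log2 scale for Klf4 (adjusted p 0.0057), 1.21 for Hspg2 (adjusted p 0.000271; 3.96 in batch 1 and 5.19 in batch 2) and 1.38 for Plaur (adjusted p 0.0137; 1.84 and 3.24). It was 0.59 for Il6ra (adjusted p 0.0149), 0.28 for Sdc1 (adjusted p 0.0145) and 0.34 for Cd44 (adjusted p 0.0150). For Eln it had the other sign, -0.85 (adjusted p 0.000521; 0.90 and 0.07).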

How the results depend on the processing

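The 23 higher members became 15 with a filter at 1 CPM in 4 libraries, which removes low genes, and 14 when a log2 fold change of at least 1 was also required; the omission of single libraries gave 20 to 23, and the remaining alternatives 19 to 26. The 2 lower members became 0 with factors from abundant genes, with the 1 CPM filter, with no batch term, in batch 1 or batch 2 alone, at an adjusted p under 0.01 and with the fold requirement. When the replicate number served as the block instead of batch, 23 members were higher and 1 was lower, and this block changed the calls of Adam12, Adam22 and Adam33 and of no other tested member. The omission of single libraries gave 1 to 3 lower members. Of the partner genes, 16 were higher with the fold requirement, against 36; the 4 lower ones became 0 with factors from abundant genes, at an adjusted p under 0.01 or with the fold requirement, 2 with the 1 CPM filter, 1 with no batch term, 1 in batch 2 alone, and 1 to 5 when single libraries were left out. Over 27 members and 18 alternatives, 426 of 477 log2 fold changes kept their direction and side of the threshold, 43 lost the call and 4 gained it. The 4 that changed sign belonged to genes that were not called: Adamts4 in batch 2 alone (0.11), and Adamts6 in batch 1 alone (-0.10), without control replicate 3 (-0.010) and without Klf4-transfected replicate 4 (-0.0029); leaving out single libraries moved Adamts6 between -0.010 and 0.055. The cause was not tested. Depth limits the low ADAMTS and MMP genes, whose control levels rest on a few counts per library.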
